A study of Sus scrofa with 20 samples.

Results

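TGFB1, PDGFRB, THBS2 and LUM, 4 genes of the kidney stroma and of transforming growth factor beta (TGF-beta) signalling, were followed in pig kidney after neurologic death (ND). They were chosen by name, and every probe set that the platform annotation assigns to 1 of these symbols was taken, which gave 6 probe sets among the 23999 tested and 4 of the 6765 genes with a single symbol. Kidney RNA of 20 pigs had been hybridised to 1-colour porcine expression arrays, 1 array per animal. The 10 ND animals had burr hole surgery, catheters and anaesthesia, and ND was then brought on by filling a subdural balloon. The 10 control animals had the same surgery, catheters and anaesthesia without balloon inflation. All 20 pigs were then ventilated for 6 h and received saline boluses of 2 cc/kg when mean arterial pressure had to be kept above 35 mmHg, so the controls are anaesthetised, operated animals and not untouched ones. Breed, sex, age and the region of the kidney sampled are not given in the sources used here, and neither is whether any array pooled both specimens taken from an animal. Animals are called by group and number, such as ND_47 or Control_199. A difference is the ND mean less the control mean of log2 signal, over 10 animals in each group. Each adjusted p is limma's, adjusted by Benjamini-Hochberg over all 23999 probe sets unless said otherwise, and a probe set passed when it was under 0.05.

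TGF-beta 1, the product of TGFB1, is secreted in a latent complex that is held in the extracellular matrix and released by integrins, proteases and thrombospondin 1. The active ligand binds serine-threonine kinase receptors that act through SMAD proteins, and in the kidney it is best known for driving fibroblasts, pericytes and mesangial cells to make matrix. Those same cells carry the platelet-derived growth factor receptor beta, the product of PDGFRB. THBS2 and LUM encode matrix proteins: thrombospondin 2 is a matricellular glycoprotein, and lumican is a small leucine-rich proteoglycan that binds collagen fibrils.

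All 4 genes had a higher mean signal in ND kidneys, by 0.65 to 1.33 on the log2 scale for the brighter probe set of each. THBS2 and PDGFRB passed the test, while TGFB1 and LUM lay just outside it. Of the 6 probe sets 2 were called higher, against 913 of all 23999 probe sets, which is 3.80%, and 0 were called lower, against 3.33%. The 4 genes were chosen with earlier results of these data known, so this count is a description and not an independent test. No member probe set had groups that stood fully apart, a pattern that 0.192% of all probe sets showed with ND above control and 0.292% with ND below it. In whole kidney RNA, more cells of a type and more RNA per cell cannot be told apart, and this holds for every difference given here.

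TGFB1, the ligand, is covered by 2 probe sets. On the brighter, the lowest, median and highest log2 signals were 4.82, 6.12 and 7.91 in ND kidneys, against 4.64, 5.13 and 5.93 in control kidneys. The top of the ND range was ND_47, and 6 of 10 ND kidneys lay above the highest control, Control_199, while ND_198 lay below the control mean. The ND mean was 6.14 ± 0.89 and the control mean 5.17 ± 0.34 (SD, n = 10 each), so the ND kidneys were also the more spread. The difference was 0.97 (SE 0.29, 95% interval 0.35 to 1.58, 1.95-fold), with an adjusted p of 0.0514 by limma, just short of the threshold. Only 547 of the 23999 probe sets had a larger absolute difference.

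The dimmer TGFB1 probe set ran from 4.84 over a median of 5.38 to 7.24 in ND kidneys, and from 3.59 over 4.70 to 5.46 in control kidneys. All 10 ND values exceeded the control mean and 4 exceeded the highest control, and ND_47 and Control_199 were again the highest of their groups. Means were 5.51 ± 0.74 in ND and 4.61 ± 0.56 in control kidneys (SD, n = 10 each). The difference of 0.91 (SE 0.28, 95% interval 0.31 to 1.5) was close to that of the brighter probe set and did not pass either (limma adjusted p = 0.0593). The 2 probe sets followed each other across ND animals, where Pearson's r was 0.90 (Spearman's rho 0.83, permutation p = 0.00052 for r, adjusted p = 0.00208 over 4 such pairs). In controls r was 0.68 (rho 0.35, permutation p = 0.0295, adjusted p = 0.0591), and the difference between the groups in this agreement was not tested. With the mean of both probe sets as the value of the gene, the difference was 0.94 and passed among genes (adjusted p = 0.0314 over 6765 genes, 11.5% of which passed that way). That setting also changed the set of tests adjusted over, from probe sets to genes. LUM has 1 probe set, so its difference stayed at 1.33, yet its limma adjusted p went from 0.0618 to 0.0450 under that setting. Averaging and the change of adjustment were therefore not separated for the TGFB1 call. The call of the brighter probe set also turned on 1 animal at a time. It passed without ND_31, ND_193, ND_198 or Control_199, with adjusted p from 0.0163 to 0.0406, and the difference was 0.77 without ND_47. Over such single omissions the share of all probe sets called ran from 5.40% to 9.60%.

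PDGFRB, the receptor, also has 2 probe sets, and they behaved differently. On the brighter one the lowest, median and highest signals were 10.31, 10.68 and 12.04 in ND kidneys, against 9.73, 10.21 and 10.74 in control kidneys. Every ND kidney lay above the control mean, 5 of 10 lay above the highest control, and ND_47 stood apart at the top of its group. Means were 10.83 ± 0.51 in ND and 10.18 ± 0.30 in control kidneys (SD, n = 10 each), a difference of 0.65 (SE 0.18, 95% interval 0.27 to 1.03, 1.57-fold) that passed with a limma adjusted p of 0.0361. In absolute size 1432 probe sets differed more. The call was lost when any 1 of 9 animals was left out (ND_01, ND_22, ND_86, ND_92, Control_02, Control_134, Control_157, Control_184 or Control_190), with adjusted p between 0.0510 and 0.0661, and it was kept without ND_47, where the difference was 0.51. The second probe set lay only just above 2.79, the upper end of background, read from control probe sets with no target in kidney. Its signals spanned 2.81 to 3.0 in ND and 2.93 to 3.17 in control kidneys, with a difference of -0.054 (SE 0.030, limma adjusted p = 0.213). Its correlation with the brighter probe set was -0.37 within ND and -0.11 within control kidneys (permutation p = 0.255 and 0.713, adjusted p = 0.341 and 0.713). It did not follow the signal of the brighter probe set, which stands for PDGFRB in the correlations and lists below. The mean of both PDGFRB probe sets, taken as the value of the gene, differed by 0.30 and passed among genes (adjusted p = 0.0365). That mean mixes in the probe set near background, so its size does not measure the change of the receptor signal.

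THBS2, a secreted glycoprotein of the pericellular matrix, had 1 probe set. Its lowest, median and highest signals were 8.0, 8.96 and 9.94 in ND kidneys, against 7.54, 7.89 and 8.90 in control kidneys. The ranges overlapped: 6 ND kidneys lay above every control, led by ND_86, while Control_156, Control_184 and Control_199, at 8.80, 8.12 and 8.90, lay above the lowest ND kidney. The mean was 8.95 ± 0.64 in ND and 8.02 ± 0.48 in control kidneys (SD, n = 10 each). THBS2 rose by 0.93 (SE 0.25, 95% interval 0.42 to 1.45, 1.91-fold; limma adjusted p = 0.0250), the smallest p of the 4 genes, and 607 probe sets had a larger absolute difference. Leaving out 1 animal moved the difference between 0.82 and 1.04 and ended the call only without ND_92 (adjusted p = 0.0508). Leaving out ND_47 and ND_92 together gave 0.78 and also ended it (adjusted p = 0.0819, with 5.74% of all probe sets called).

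LUM, the collagen-binding proteoglycan, had the largest difference of the 4 genes and the widest spread of them in controls, while in ND kidneys TGFB1 was the more spread. Its single probe set read 6.34, 7.71 and 8.45 at the lowest, median and highest ND kidney, against 4.81, 5.82 and 8.45 in control kidneys. All 10 ND values exceeded the control mean, but none exceeded the highest control: Control_156, Control_157 and Control_199 read 8.45, 7.65 and 6.77, above the lowest ND kidney, and the other 7 controls lay below every ND kidney. Means were 7.46 ± 0.74 in ND and 6.13 ± 1.16 in control kidneys (SD, n = 10 each). The difference was 1.33 (SE 0.42, 95% interval 0.45 to 2.22, 2.52-fold), larger than that of all but 214 probe sets, yet it did not pass (limma adjusted p = 0.0618). It passed when ND_22, ND_198, Control_156 or Control_157 was left out, with adjusted p from 0.0126 to 0.0484, and without ND_47 and Control_156 together (1.53, adjusted p = 0.0208, with 6.36% of all probe sets called). An unadjusted permutation test of each mean difference over the 20 animals gave p = 0.00302 and 0.00362 for the TGFB1 probe sets, 0.00101 and 0.0459 for PDGFRB, 0.00256 for THBS2 and 0.00809 for LUM.

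**Figure D1:**
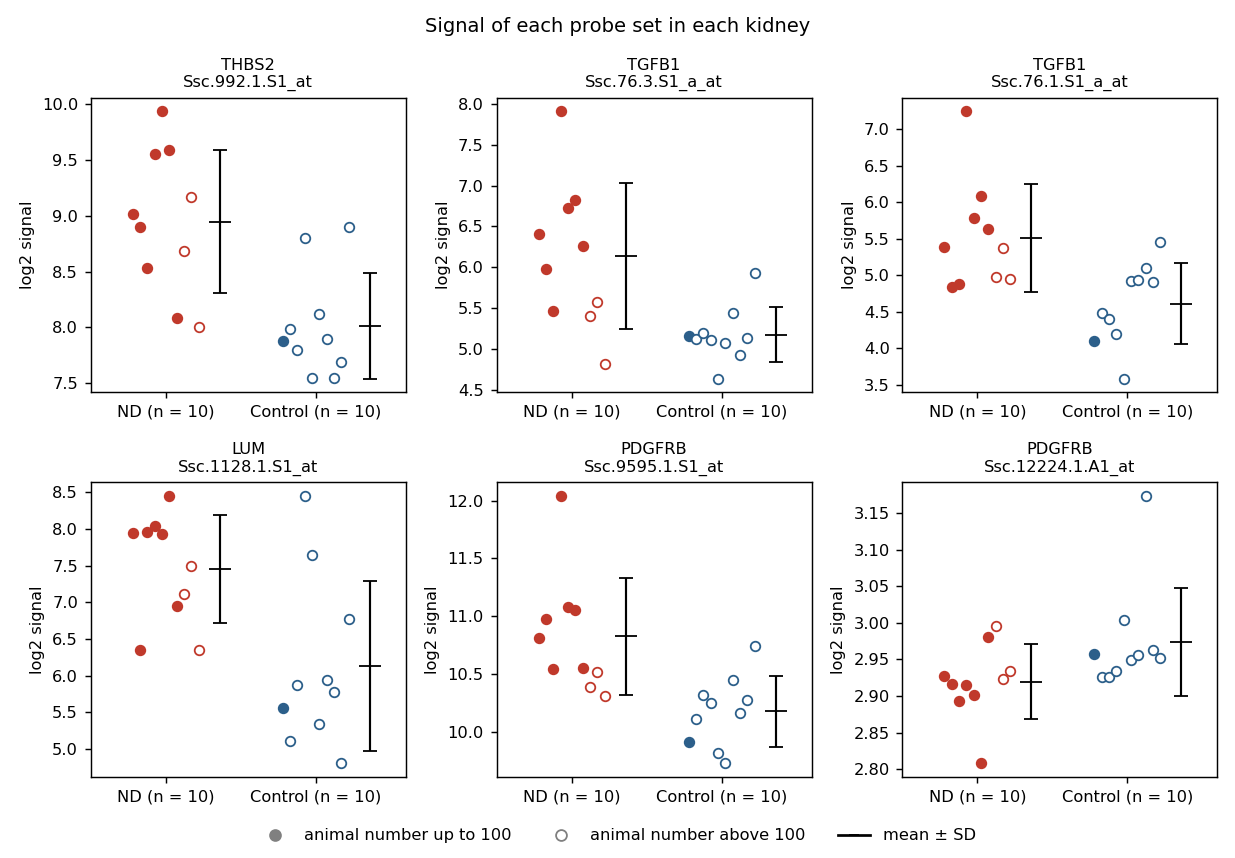
Panel titles give the gene and the probe set identifier, and each point is the log2 signal of 1 kidney on 1 probe set, with ND kidneys left of control kidneys, filled points for animals numbered up to 100, open points for higher numbers, and bars for mean ± SD (n = 10 each). ND_47 is the top point on both TGFB1 probe sets and on the brighter PDGFRB one, and the highest LUM control, Control_156, reads 8.45.

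The same ND animals carried the high values of several genes. Of the 4 genes, 3 lay above the highest control in each of ND_01, ND_22, ND_47, ND_86 and ND_92, 1 did in ND_100 and ND_194, and 0 did in ND_31, ND_193 and ND_198. ND_198 was the only ND kidney that exceeded the control mean for fewer than 4 genes, with 2. Among controls, Control_199 was the highest of its group for 3 genes and lay above the control mean for all 4. The high animals were mostly those with low numbers: numbers up to 100 belonged to 7 of the ND animals and 1 of the controls, and what the numbers stand for is not given in the labels.

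Group means were also read within ranges of animal number. The brighter TGFB1 probe set averaged 6.51 ± 0.77 in ND animals up to 100 (SD, n = 7), against 5.16 in the 1 control of that range. Above 100 it averaged 5.27 ± 0.40 in ND (SD, n = 3) and 5.17 ± 0.36 in control animals (SD, n = 9), so the ND animals with high numbers lay within the controls. PDGFRB likewise averaged 11.01 ± 0.51 in low-numbered ND animals against 9.91 in the 1 control, and above 100 it averaged 10.41 ± 0.11 in ND and 10.21 ± 0.31 in control animals. For THBS2 the ND animals averaged 9.09 ± 0.65 up to 100, against 7.88 in the 1 control, and above 100 they averaged 8.62 ± 0.59 against 8.03 ± 0.50 in controls. LUM averaged 7.66 ± 0.73 in low-numbered ND animals against 5.55 in the 1 control, and 6.99 ± 0.59 in ND against 6.19 ± 1.21 in control animals above 100. The dimmer TGFB1 probe set gave 5.10 ± 0.24 in ND and 4.67 ± 0.56 in control animals above 100.

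With a term for animal number above 100, the difference was 0.76 for THBS2, 0.45 for PDGFRB, 0.45 and 0.76 for the brighter and dimmer TGFB1 probe sets and 1.16 for LUM, and none passed. The limma adjusted p-values were 0.249, 0.390, 0.661, 0.362 and 0.343 in that order. Over all probe sets that term left 2.10% called, against 7.13% without it. Among animals numbered above 100 alone, 3 ND against 9 controls, the differences were 0.59 for THBS2, 0.20 for PDGFRB, 0.094 for the brighter TGFB1 probe set and 0.79 for LUM, with adjusted p from 0.541 to 1.0 and 1.11% of all probe sets called. Whether numbers stand for time, source or litter was not tested, and number and group can be only partly told apart in this design.

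**Figure D2:**
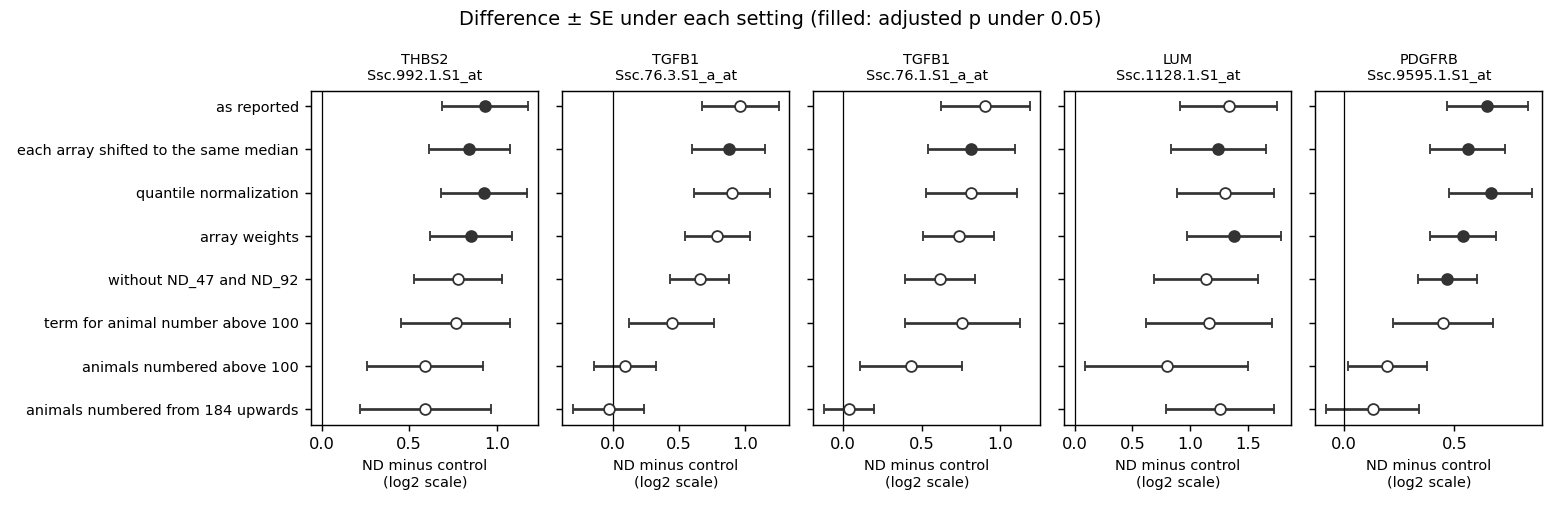
Difference in log2 signal between ND and control kidneys (points, with SE) for 5 probe sets under 8 settings, filled where the adjusted p was under 0.05. The 5 differences as reported lie between 0.65 and 1.33, and with animals numbered from Control_184 upwards they run from -0.031 for the brighter TGFB1 probe set to 1.26 for LUM.

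Array medians and RNA quality were compared between the groups. The median log2 signal of an array ran from 5.15 to 5.35 in ND and from 5.09 to 5.28 in control animals, a mean difference of 0.088 (permutation p = 0.00628), and the number of arrays limits the precision of every value. The actin 3' minus 5' signal, a measure of RNA degradation and labelling, averaged 4.01 ± 0.74 in ND and 4.14 ± 0.60 in control arrays (permutation p = 0.680), and ND_47 had the lowest value of all 20 arrays, 2.60. The same measure for GAPDH averaged 1.67 ± 0.17 in ND and 1.85 ± 0.27 in control arrays (permutation p = 0.0872), and its part in the results was not tested. A term for the actin measure kept THBS2 and PDGFRB past the threshold, with adjusted p of 0.0295 and 0.0330, while 8.49% of all probe sets passed. Kidney identity could be checked with only 2 of 11 listed epithelial markers. LRP2, the endocytic receptor megalin, averaged 13.60 ± 0.44 in ND and 13.35 ± 0.18 in control kidneys, and SLC22A6, the organic anion transporter of the proximal tubule, averaged 8.50 ± 1.22 in ND and 9.0 ± 0.74 in control kidneys (SD, n = 10 each; limma adjusted p = 0.240 and 0.422).

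Covariation was then measured within each group, with the brighter probe set of each gene, 10 animals at a time and 12 correlations in all. TGFB1 and PDGFRB went together most closely in both groups. In ND kidneys Pearson's r was 0.93 and Spearman's rho 0.94, with permutation p of 0.00025 and 0.00019 and adjusted p of 0.0030 and 0.00228. In control kidneys r was 0.81 and rho 0.78, with permutation p of 0.00558 and 0.0105 and adjusted p of 0.0335 and 0.0456. These were the only Pearson correlations of the 12 to pass after adjustment. Without ND_47 and ND_198, the ND animals farthest from the TGFB1 median, r was 0.83 (n = 8, exact p = 0.0235) and no longer passed after adjustment (adjusted p = 0.244). Without Control_157 and Control_199 the control r was 0.49 (n = 8, exact p = 0.215, adjusted p = 0.287), so the control call rested on those animals. In ND kidneys r ran from 0.87 to 0.95 over single omissions, and none of these ended the call. Within the 7 ND animals numbered up to 100, r was 0.90 (exact p = 0.0107, adjusted p = 0.0643), and within the 9 controls above 100 it was 0.84 (exact p = 0.00621, adjusted p = 0.0643).

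THBS2 was related to each of the other genes in ND kidneys with an r near 0.7, short of the threshold after adjustment. Its Pearson r was 0.70 with TGFB1, 0.69 with LUM and 0.69 with PDGFRB, each with an adjusted permutation p of 0.0648. By rank, rho was 0.77 with TGFB1 and 0.76 with PDGFRB (permutation p = 0.0124 and 0.0152, both with adjusted p = 0.0456), and 0.65 with LUM (permutation p = 0.0503, adjusted p = 0.101). Without ND_86 and ND_198, the animals farthest from the THBS2 median, these r values were 0.59, 0.57 and 0.67. In control kidneys THBS2 gave r = 0.67 with TGFB1 (rho 0.43, adjusted permutation p = 0.0648 for r), 0.48 with LUM (rho 0.21) and 0.48 with PDGFRB (rho 0.22), the last 2 with adjusted p = 0.197. Both rested on Control_156 and Control_199, without which r was -0.51 with LUM and -0.18 with PDGFRB, against 0.58 with TGFB1.

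LUM gave no correlation that passed. Its r with TGFB1 was 0.61 in ND (rho 0.67) and -0.068 in control kidneys (rho 0.0061), with adjusted permutation p of 0.103 and 0.838. Its r with PDGFRB was 0.47 in ND (rho 0.59) and 0.11 in control kidneys (rho 0.26), with adjusted p of 0.197 and 0.829. Control_156 and Control_157, the controls highest in LUM, were not high in TGFB1 or PDGFRB, at 5.11 and 4.64 for TGFB1 and 10.25 and 9.82 for PDGFRB. All 6 correlations were higher in ND than in control kidneys, by 0.034 to 0.68, but none of these differences passed. The widest, for TGFB1 with LUM, was 0.68 (permutation p = 0.0895, adjusted p = 0.537 over 6 differences), and it was 0.98 and passed when Control_199 was left out (adjusted p = 0.0395).

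**Figure D3:**
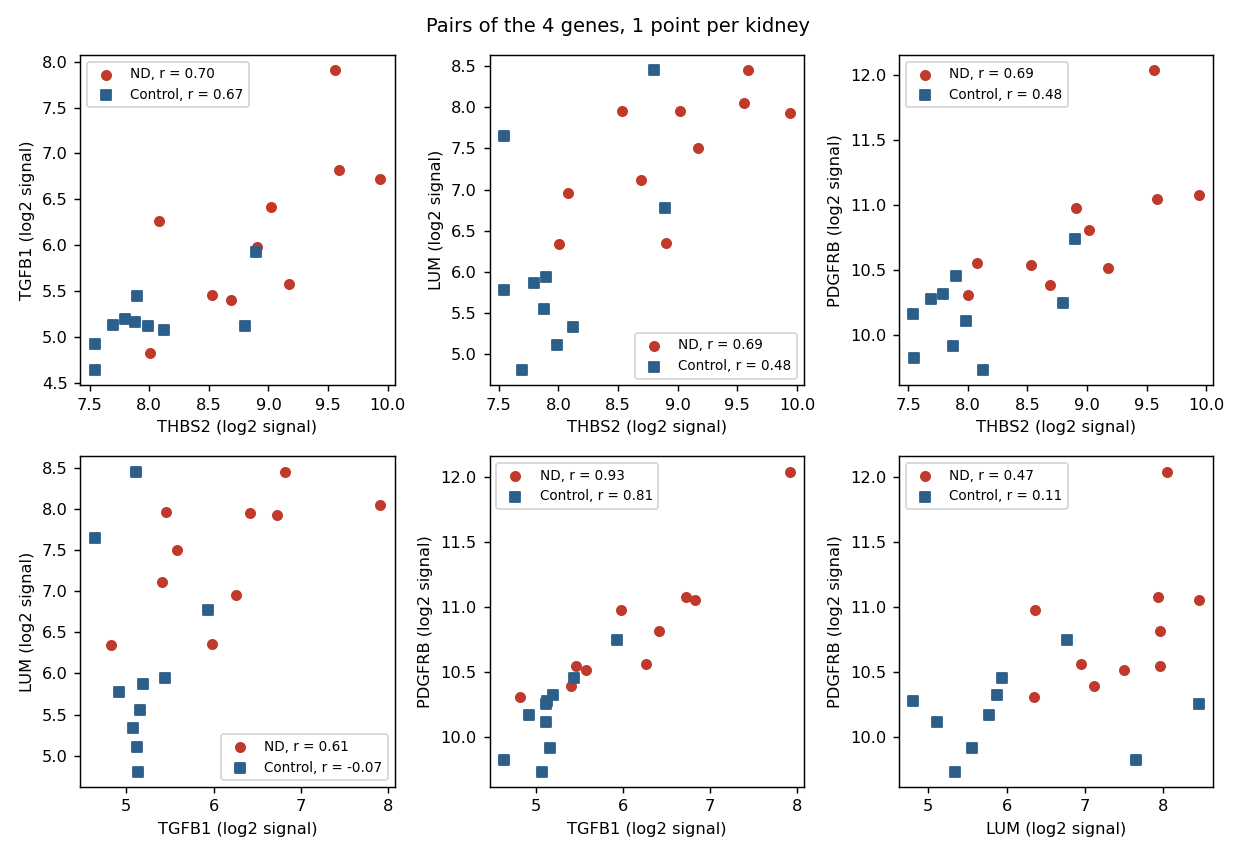
Log2 signals of 2 genes per panel, 1 point per kidney, circles for ND and squares for control kidneys, with Pearson's r in each legend. TGFB1 and PDGFRB lie along a line in both groups (r = 0.93 in ND and 0.81 in control), while LUM and TGFB1 do so less (r = 0.61 in ND and -0.068 in control).

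The genes whose pattern between animals was most like each of the 4 were ranked by Pearson's r over all 20 arrays after centring each group on its mean, among 5640 genes with a mean signal above background. These values describe arrays that share their RNA and scaling, and carry no test. For THBS2 they were EPB41L2, a membrane skeleton protein (r = 0.78), COL6A2 (0.77) and COL6A3 (0.76), both chains of collagen VI, C1QTNF2, a secreted C1q-related protein (0.76), and COL15A1, a basement membrane collagen (0.73). For LUM they were CD81, a tetraspanin (0.75), CCDC80, a matrix protein (0.72), SVBP, a partner of the vasohibins (0.71), MAVS, an adaptor of antiviral RNA sensing (0.70), and DMPK, a muscle kinase (0.69). MAVS averaged 2.71 in ND kidneys, under the upper end of background, and 3.07 in control kidneys, so its ND mean is not distinguishable from background. For SVBP, MAVS and DMPK the likeness to LUM was low in ND kidneys, with r of 0.29, 0.41 and 0.38, against 0.86, 0.80 and 0.90 in control kidneys. Without ND_47 the centred r was 0.70 to 0.79 for the THBS2 pairs and 0.70 to 0.84 for the LUM pairs.

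TGFB1 was matched by PDGFRB at 0.89, ahead of PPAN, a ribosome biogenesis factor, ACTN1, an actin crosslinker, and MYADM, a membrane protein, all at 0.88, and EMILIN2, a matrix glycoprotein, at 0.87. PDGFRB was matched by ACTN1 at 0.92, FGFR1, a fibroblast growth factor receptor, at 0.91, and by TGFB1, ENG and CLIC1 at 0.89. ENG encodes endoglin, a co-receptor for TGF-beta, and its own difference between the groups was 0.066 (SE 0.17, limma adjusted p = 0.806). CLIC1, a chloride channel protein, rose by 0.77 (SE 0.23, adjusted p = 0.0476). ND_47 weighed on these high values: 16.5% of all 5640 genes had an r of at least 0.5 with TGFB1 and 16.9% with PDGFRB, against 5.46% and 4.34% without ND_47. For THBS2 the share was 3.62% with ND_47 and 2.93% without it, and for LUM 2.85% and 3.62%. Without ND_47 the r of TGFB1 with PDGFRB was 0.80, still the highest of all genes for TGFB1, while ACTN1, FGFR1, ENG and CLIC1 stood at 0.84, 0.82, 0.78 and 0.75 with PDGFRB.

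Among listed gene groups, THBS2 had an r of at least 0.5 with 10 of 17 collagens and matrix glycoproteins and with 4 of 5 small leucine-rich proteoglycans, and without ND_47 with 8 and 4. PDGFRB had it with 10 of 17 collagens and matrix glycoproteins and 5 of 7 smooth muscle markers, and without ND_47 with 6 and 3. LUM had it with 6 of 17 collagens and matrix glycoproteins with or without ND_47, and with 0 of 12 other fibroblast, pericyte and mesangial markers. TGFB1 had it with 7 of 17 collagens and matrix glycoproteins and 4 of 7 smooth muscle markers, and without ND_47 with 3 and 2. With or without ND_47, THBS2 had it with 4 of 7 smooth muscle markers and LUM with 1 of 7. Of 16 TGF-beta target genes THBS2 and TGFB1 each had it with 7, PDGFRB with 8 and LUM with 0. Without ND_47 those target counts were 7 for THBS2, 4 for TGFB1, 4 for PDGFRB and 0 for LUM. Of 10 myeloid and pan-leukocyte markers TGFB1 had it with 6 and PDGFRB with 5, and each with 1 without ND_47. Of 9 endothelial markers TGFB1 had it with 4 and PDGFRB with 5, and again each with 1 without ND_47.

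Calls among other genes of the pathway around the 4 genes were counted beside the share over all genes. Of 64 other listed pathway genes measured, 3 were higher and 1 was lower in ND kidneys, where 5.44% of all 6765 genes were called higher and 4.55% lower. Their median difference was 0.15, against -0.017 over all genes. An unadjusted p under 0.05 was reached by 30.1% of all 6765 genes, and the counts at that p given for the lists are to be read against that share.

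Among 9 ligands and activators of TGF-beta, 1 rose, 0 fell and 8 did not pass, with a median difference of 0.19. The one that rose was ITGAV, the alpha V integrin chain that helps release active TGF-beta, which averaged 10.54 ± 0.23 in ND and 10.24 ± 0.12 in control kidneys (difference 0.30, SE 0.081, limma adjusted p = 0.0284). Its call was lost without ND_92, Control_02 or Control_184, with adjusted p up to 0.0546, with arrays shifted to the same median (adjusted p = 0.0588) and with the animal number term (0.38, adjusted p = 0.0548). The ligands TGFB2 and TGFB3 were dim, and these and the next genes were picked after their values were seen. TGFB3 lay above background in 6 of 10 ND and 0 of 10 control kidneys, with measured means of 3.19 and 2.40. The difference did not pass (limma adjusted p = 0.0963). Against the background floor the fold was 1.32, a point estimate and not a minimum rise. THBS1, the thrombospondin that activates latent TGF-beta, averaged 13.31 in ND and 13.12 in control kidneys on its brightest probe set (difference 0.19, SE 0.17, adjusted p = 0.447).

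Of 9 receptors of the TGF-beta family, 0 rose, 1 fell and 8 did not pass, with a median difference of 0.0017. BMPR1B, a type I receptor for bone morphogenetic proteins, fell by 0.89 (SE 0.23, limma adjusted p = 0.0213), with means of 6.91 ± 0.54 in ND and 7.81 ± 0.50 in control kidneys on its brightest probe set. Its next probe set differed by -0.90 and did not pass (adjusted p = 0.0986), and the call was lost without ND_47 and ND_92 together (-0.86, adjusted p = 0.0549), with the animal number term (-0.92, adjusted p = 0.124), above number 100 (-0.72, adjusted p = 0.338) and from Control_184 upwards (-0.41, adjusted p = 0.514). Of 3 SMAD transducers 1 rose: SMAD4, the partner shared by receptor-activated SMADs, with 10.81 ± 0.15 in ND and 10.60 ± 0.14 in control kidneys (difference 0.21, SE 0.063, adjusted p = 0.0486), a call lost on leaving out any 1 of 15 animals and with arrays shifted to the same median (0.12, adjusted p = 0.202), as it was with the number term (0.26, adjusted p = 0.106). SMAD3, the transducer of TGF-beta receptors and another gene picked after its value was seen, differed by 0.63 (SE 0.20, adjusted p = 0.0649).

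None of 5 inhibitors of TGF-beta signalling and none of 18 TGF-beta target genes passed by limma, and 2 in each list had an unadjusted p under 0.05, where 30.1% of all genes did. Median differences were 0.40 and 0.12. The inhibitor with the smallest p was FST, follistatin, an activin-binding protein, which lay at background in all 10 ND kidneys and above it in 2 controls, with measured means of 2.14 and 2.41 (adjusted p = 0.0804). The target with the smallest p was TIMP1, an inhibitor of matrix metalloproteinases, with means of 8.37 ± 1.59 in ND and 6.94 ± 0.37 in control kidneys (difference 1.43, SE 0.50, adjusted p = 0.0895), the wide ND spread including ND_47 at 12.41. Without ND_47 and ND_92 the TIMP1 difference was 0.78 and passed (adjusted p = 0.0245).

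In the PDGF group only PDGFRB and PDGFRL, a receptor-like protein, were measured, so no PDGF ligand could be set beside the receptor. The 5 small leucine-rich proteoglycans all had a difference above 0, with a median of 0.45, but 0 passed by limma and 1, LUM itself, had an unadjusted p under 0.05. DCN, decorin, the lumican relative that binds TGF-beta, picked after its value was seen, differed by 0.59 (SE 0.31, adjusted p = 0.205). Of 5 thrombospondins and receptors 2 rose, THBS2 and CD47, and THBS3 and COMP lay at background on all arrays. CD47, a receptor of thrombospondins, averaged 10.47 ± 0.22 in ND and 9.87 ± 0.22 in control kidneys (difference 0.61, SE 0.10, adjusted p = 0.000983). It stayed past the threshold without any 1 animal and with the animal number term (0.54, adjusted p = 0.0286), but not among animals above number 100 (0.54, adjusted p = 0.107) or from Control_184 upwards (0.59, adjusted p = 0.101). Its next probe set differed by 0.55 (adjusted p = 0.0396).

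Of 18 collagens and matrix glycoproteins 0 passed by limma and 4 had an unadjusted p under 0.05, a share below the 30.1% of all genes, with a median difference of 0.21. LAMC1, a laminin chain of basement membranes, had the smallest p, with 9.76 ± 0.24 in ND and 9.40 ± 0.30 in control kidneys (difference 0.36, SE 0.12, adjusted p = 0.0712). Its 3 dimmer probe sets differed by -0.15, 0.36 and -0.066. The fibrillar collagen genes COL1A2 and COL3A1, named after their values were seen, differed by -0.050 and -0.16 (adjusted p = 0.662 and 0.416). COL1A2 averaged 4.96 in ND and 5.01 in control kidneys. COL3A1 was dim, with means of 3.24 in ND and 3.40 in control kidneys. Its lowest ND signal, 2.86, lay only just above 2.79, the upper end of background. The small COL3A1 difference therefore does not show that its RNA was unchanged. COL6A3 differed by 0.94 (adjusted p = 0.0861).

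**Figure D4:**
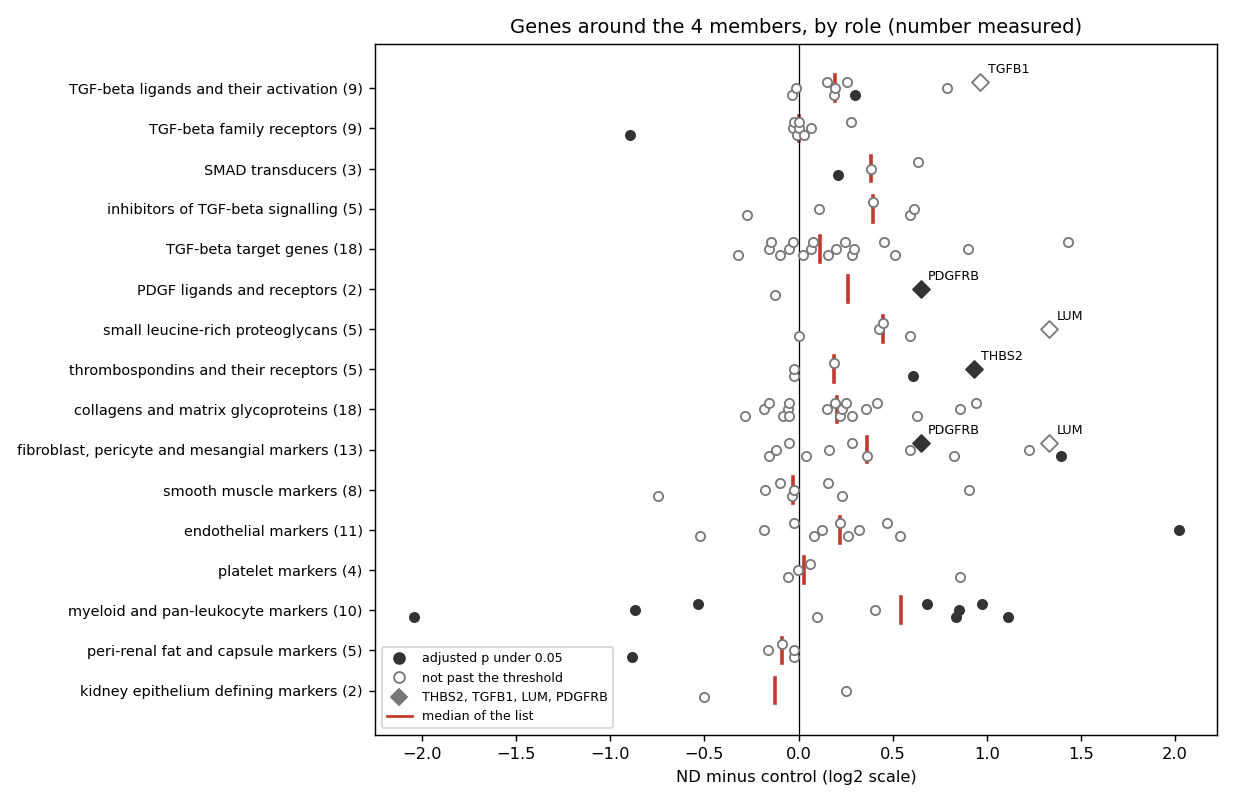
Difference in log2 signal between ND and control kidneys for each measured gene of 16 lists, filled where the adjusted p was under 0.05, with diamonds for the 4 genes and a red bar at each list's median. The medians run from -0.13 for kidney epithelium to 0.54 for myeloid markers, and the 4 genes lie between 0.65 and 1.33.

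Markers of the cells that could carry these transcripts were read alongside. Of 13 fibroblast, pericyte and mesangial markers, which include PDGFRB and LUM, 2 rose, 0 fell and 6 had an unadjusted p under 0.05, where 30.1% of all genes did, and the median difference was 0.36. Their mean log2 level per kidney spanned 6.91 to 7.66 in ND and 6.4 to 7.15 in control animals. Besides PDGFRB the one that rose was S100A4, a calcium-binding protein of fibroblasts and also of leukocytes, with 6.01 ± 0.87 in ND and 4.61 ± 0.35 in control kidneys (difference 1.39, SE 0.29, limma adjusted p = 0.00631). Its call was lost with the animal number term (0.83, adjusted p = 0.195) and above number 100 (0.63, adjusted p = 0.228).

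Leukocyte markers moved too. Of 10 myeloid and pan-leukocyte markers 5 rose and 3 fell, with a median of 0.54 and a mean level per kidney of 6.66 to 8.03 in ND and 6.77 to 7.52 in control animals. CTSS, a lysosomal protease, rose by 0.85 (SE 0.16, adjusted p = 0.00259), and LAPTM5, a lysosomal membrane protein of leukocytes, by 1.11 (SE 0.21, adjusted p = 0.00375) on its brighter probe set. With the animal number term both were 0.69 and neither passed (adjusted p = 0.0742 and 0.134). CD163, the haemoglobin scavenger receptor of resident macrophages, fell by 2.04 (SE 0.36, adjusted p = 0.00194). TGFB1 is made by leukocytes as well as by stromal and tubular cells, and the part of these cells in its difference was not tested.

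Of 11 endothelial markers 1 rose, CLDN5, a tight junction protein, with 7.04 ± 1.11 in ND and 5.02 ± 0.61 in control kidneys (difference 2.02, SE 0.39, adjusted p = 0.00370). The CLDN5 call was lost with the animal number term (1.83, adjusted p = 0.0660), above number 100 (1.77, adjusted p = 0.0631) and from Control_184 upwards (1.84, adjusted p = 0.115). The mean level of the list spanned 5.85 to 7.31 in ND and 5.94 to 6.38 in control animals, and KDR lay at background on all arrays. Of 8 smooth muscle markers 0 passed by limma and 2 had an unadjusted p under 0.05, a share below that of all genes, with a median difference of -0.029 and levels of 6.54 to 8.04 in ND and 6.70 to 7.64 in control animals. SYNM, a muscle intermediate filament protein, had the smallest p and differed by -0.75 (SE 0.24, adjusted p = 0.0721), and passed after quantile normalisation (-0.82, adjusted p = 0.0448). CNN1, calponin, the other of the 2 and picked after its value was seen, differed by 0.91 (SE 0.39, adjusted p = 0.141). Platelets store TGF-beta 1, and of 4 platelet markers measured 0 passed by limma and 1 had an unadjusted p under 0.05, ITGB3, an integrin chain also found on other cells (0.86, SE 0.39, adjusted p = 0.153). PPBP and GP9 lay at background on all arrays. ITGA2B, the last of the 4 and named after its value was seen, lay above background in 10 of 10 ND and 10 of 10 control kidneys. It averaged 5.15 in ND and 5.10 in control kidneys (difference 0.059, limma adjusted p = 0.609). The level of the list spanned 3.0 to 3.67 in ND and 2.83 to 3.39 in control animals.

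Fat and capsule tissue carried with the kidney would bring stroma of its own. Of 5 such markers 0 rose and 1 fell, FABP4, a fatty acid carrier of adipocytes and endothelium, with 6.47 ± 0.46 in ND and 7.36 ± 0.52 in control kidneys (difference -0.89, SE 0.21, limma adjusted p = 0.0160). The FABP4 call was kept with the animal number term. It was lost above number 100 (-1.15, adjusted p = 0.165) and from Control_184 upwards (-1.20, adjusted p = 0.243), where fewer animals remained and the difference was not smaller. ADIPOQ, an adipocyte marker, lay at background on all arrays. LEP, LPL and CIDEA, named after their values were seen, each lay above background in 10 of 10 ND and 10 of 10 control kidneys. They differed by -0.025, -0.16 and -0.089 (limma adjusted p = 0.290, 0.670 and 0.746). The list's level spanned 4.12 to 4.74 in ND and 4.46 to 4.82 in control animals.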

How the data were processed

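Each array carries a single deposited value for every probe set, and these values were taken as log2 signals because they run from 0.88 to 16.2. No label states the unit. Neither the background correction nor the summarisation or scaling the authors applied is stated in the labels, and another scaling could move small differences. Per the labels' protocols, total RNA came from a TRIzol extraction, with 250 ng as input for biotin-tagged cRNA. Group and animal number came from sample titles.

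Of 24123 probe sets, 124 controls were left out. The 23999 tested comprised 10069 with 1 gene symbol, 198 with several and 13732 with none here. An Entrez ID in a RefSeq table was found for 9961 of the 10069, which changed 0 symbols. Where a gene had several probe sets, the brightest on average stood for it. Background ended at 2.79, the highest of 23 tag and tryptophan controls. For a group wholly under background, the fold was taken against a floor, set on each array at its dimmest signal above background or at the probe set's own value if larger. Sequences and coordinates were not used here.

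The fit was made in R 4.3.3 with limma 3.58.1, with lmFit and eBayes and no covariate. Correlations used two-sided permutation tests with 100000 resamples (exact for fewer than 10 animals) in Python 3.11.15 with numpy 2.4.6 and pandas 2.3.3. Replicates are separate animals. Data were simulated for 10 arrays against 10 over 23999 probe sets, each drawn independently, with 100 probe sets changed at each of 2 sizes. There 42% of 1.41-fold and 75% of 2-fold changes were recovered, and 6 of 123 calls were unchanged probe sets. In the real arrays genes vary together and 1712 probe sets were called, so these rates need not hold for them. The 4 genes and the 16 gene lists were chosen with earlier results of these data known. Named are all probe sets of the 4 genes, up to 3 passing genes per list by p (the first by p where none passed), the 5 most alike genes per member, and LRP2 and SLC22A6 as kidney markers. Genes outside this rule are marked as picked after their values were seen. Alternatives were other scalings, leaving out dim probe sets, other variance models and array weights, gene means, terms for animal number and RNA quality, subsets of animals, a stricter threshold, Spearman's rho and leaving out each animal.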

Additional observations from a re-analysis of the deposited data

Results flagged for a closer look

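Of 46 groups of 10 values tested for a single outlying kidney by Dixon's criterion, 8 were marked, where chance alone marks about 5% of groups. In 4 of them the outlying kidney was ND_47, always the highest ND value. It read 7.24 on the dimmer TGFB1 probe set, with the next ND kidney at 6.08, and 12.04 on the brighter PDGFRB probe set, with the next at 11.08. It also read 12.41 for TIMP1, against 9.58 in the next ND kidney, and 9.62 for CLDN5, against 7.61. Both member differences were smaller without ND_47, at 0.71 for that TGFB1 probe set and 0.51 for PDGFRB.

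The other 4 fell on different animals. Control_190 was the highest control on the dim PDGFRB probe set, at 3.17 with the next at 3.0, both near background. ND_92 was the lowest ND kidney for FST, at 1.99 with the next at 2.09, all under background. ND_31 was the lowest ND kidney for LAMC1, at 9.19 with the next at 9.63. Control_134 was the lowest control for SLC22A6, at 7.10 with the next at 8.63.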

How the results depend on the processing

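Animal number mattered most. With animals numbered from Control_184 upwards (3 ND, 5 control) the differences were 0.59 for THBS2, 0.13 for PDGFRB, 1.26 for LUM, 0.038 for the dimmer and -0.031 for the brighter TGFB1 probe set, the last opposite in sign. With the number term THBS2 (0.76) and PDGFRB (0.45) lost their calls, as they did above number 100 (0.59 and 0.20), and THBS2 did without ND_47 and ND_92 (0.78).

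Calls were gained by shifting arrays to 1 median (TGFB1 0.88 and 0.82, LUM 1.24, dim PDGFRB probe set -0.14), which moved the median of all probe sets to -0.12, against -0.027 as deposited, and called 36.6% of them. They were also gained with the filter on dim probe sets (TGFB1 0.97 and 0.91, LUM 1.33), trend and robust variance (TGFB1 0.97) and array weights (LUM 1.38). The mean per gene, adjusted over genes and not over probe sets, gained calls too (TGFB1 0.94, LUM 1.33, with PDGFRB at 0.30 and still called). A further call was gained without ND_47 and Control_156 (LUM 1.53). For the dim PDGFRB probe set (-0.054) the unadjusted permutation p was 0.0459, against an unadjusted limma p of 0.0809. That is not a call, and its limma adjusted p was 0.213.

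Probe sets called higher and lower numbered 913 and 799, against 179 and 326 with the number term, 92 and 175 above 100, 19 and 38 from Control_184 upwards, 303 and 316 at an adjusted p under 0.01, and 7728 lower after the median shift. Listed genes called higher and lower numbered 12 and 5, with THBS2 and PDGFRB themselves among the 12. For those number settings they numbered 1 and 3, 2 and 1, and 0 and 0. Listed genes called lower numbered 15 after the median shift, and 3 without ND_47 and either ND_92 or Control_156.

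Correlations that crossed the threshold were THBS2 with TGFB1 and PDGFRB in ND by rank (0.77 and 0.76), and TGFB1 with PDGFRB without the 2 farthest animals (0.83 in ND and 0.49 in control, adjusted p = 0.244 and 0.287), and in controls with gene means (0.73) or without Control_199 (0.63). SLC22A6, not called in any of these, turned to 0.080 from Control_184 upwards and 0.28 above 100. With the number term 9 of the 12 named genes that had a call lost it. The cause of these shifts was not tested.

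Leaving out each animal gave 0.82 to 1.04 for THBS2, 0.77 to 1.11 and 0.71 to 1.0 for the TGFB1 probe sets, 1.19 to 1.59 for LUM, and 0.51 to 0.71 and -0.063 to -0.032 for the PDGFRB probe sets. Counts ran from 680 to 1059 higher and 615 to 1244 lower (the top without ND_193), and from 7 (without ND_92) to 15 and 3 to 5 among listed genes, the 3 without ND_198, Control_155, Control_187, Control_190 or Control_197. In ND, r ran from 0.59 to 0.83 for THBS2 with TGFB1, 0.57 to 0.79 with LUM and 0.63 to 0.79 with PDGFRB, each gained once (without ND_100, ND_22 and ND_47), and 0.87 to 0.95 for TGFB1 with PDGFRB. In controls it ran from 0.33 to 0.87 for THBS2 with TGFB1 (gained without Control_156) and 0.63 to 0.89 for TGFB1 with PDGFRB (lost without Control_134, Control_157, Control_187 or Control_199). The ND minus control difference in r for TGFB1 with LUM ran from 0.35 to 0.98. No paired analysis was possible because ND and control animals share no animal number.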
